A study of Mus musculus with 10 samples.

Results

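Cycling alveolar cells are epithelial cells of the lung alveolus caught in the DNA-copying and division stages of the cell cycle. They were chosen by a rule on single-cell UMI counts, where a UMI is 1 captured RNA molecule: a barcode had at least 1000 genes detected, at most 50000 UMIs, at most 15% mitochondrial UMIs, no UMI of Ptprc (the pan-leukocyte gene) and at least 5 UMIs of Sftpc (surfactant protein C, the defining transcript of alveolar type 2, or AT2, cells), and at least 4 of the 6 genes Mki67, Top2a, Birc5, Cdk1, Ube2c and Rrm2 had a UMI. The rule kept 1739 cells of 42012 barcodes in 10 libraries. All mice were adults that carried Sftpc-CreERT2, a tamoxifen-dependent recombinase driven from the Sftpc gene, and were given 3 doses of 0.2 mg tamoxifen per g body weight. Confetti mice carried R26R-Confetti, whose RFP+ and YFP+ cells are both wildtype, and gave 1 library of each colour (76 and 88 cycling cells). Red2Kras mice carried an allele by which the RFP+ cells are mutant (mutant cells) whereas the YFP+ cells of the same lungs stay wildtype (neighbours). They were sampled at 4 days and 2 weeks, with 2 libraries of each colour at each time. The 4-day mutant libraries held 152 and 101 cycling cells, the 4-day neighbours 27 and 197, the 2-week mutants 739 and 163, and the 2-week neighbours 181 and 15. Libraries were made from EpCAM+ cells sorted by colour and pooled from several lungs, so a library is a pool and not an animal, and p-values measure the spread between such pools. The study's methods place the Confetti libraries at 2 weeks, which their labels do not state. The mutation behind the RFP was not checked here, because 3′ counts do not read it.

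AT2 cells secrete surfactant and act as stem cells of the alveolus: they divide to renew themselves and give rise to the flat gas-exchange AT1 cells, in part through Krt8-high intermediates often called damage-associated transient progenitors (DATPs). In dividing cells, the E2F factors switch on S-phase genes such as the Mcm helicase subunits, Pcna and Rrm2 (a subunit of ribonucleotide reductase, which makes the DNA precursors). Genes of G2 and mitosis, such as the cyclin B genes, Cdk1, Top2a (the topoisomerase that untangles sister DNA), Birc5 (survivin, a subunit of the chromosomal passenger complex) and Ube2c (a ubiquitin-conjugating enzyme of the anaphase-promoting complex), follow later, and many of their promoters carry CCAAT boxes and a cell-cycle element with the letters TTTGAA.

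The promoters of 3 rule genes are shown because 5 of the 6 rule genes, all but Rrm2, belong to this late class. Each run is the 250 bases before the start site in the RefSeq promoter table (GRCm38.p6), 5′ to 3′ on the gene's strand, with the CCAAT box and the cell-cycle element in capitals on either strand, so that their reverse complements are capitals as well. The element was searched as TTTGAA and also in the variant form TTCGAA, which reads the same on both strands. The windows lie at chr11:99024190-99024439 (Top2a, minus strand), chr10:69352913-69353162 (Cdk1, minus strand) and chr7:135716380-135716629 (Mki67, minus strand).
Top2a: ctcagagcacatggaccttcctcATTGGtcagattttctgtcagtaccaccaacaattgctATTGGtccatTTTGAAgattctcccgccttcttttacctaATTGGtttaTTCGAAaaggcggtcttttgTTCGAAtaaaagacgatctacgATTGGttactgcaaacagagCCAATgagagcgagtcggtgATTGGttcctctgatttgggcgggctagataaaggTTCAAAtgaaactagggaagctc
Cdk1: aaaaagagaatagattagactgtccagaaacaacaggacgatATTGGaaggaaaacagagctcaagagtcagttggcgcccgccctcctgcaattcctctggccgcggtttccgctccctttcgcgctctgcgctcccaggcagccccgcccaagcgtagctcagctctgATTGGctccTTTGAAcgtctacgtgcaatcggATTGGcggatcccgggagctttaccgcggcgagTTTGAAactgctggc
Mki67: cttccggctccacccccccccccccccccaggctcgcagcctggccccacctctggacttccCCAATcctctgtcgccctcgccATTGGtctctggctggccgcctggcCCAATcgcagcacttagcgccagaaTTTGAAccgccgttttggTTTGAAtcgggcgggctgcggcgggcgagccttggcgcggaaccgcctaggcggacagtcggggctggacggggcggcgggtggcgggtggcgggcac
Top2a held 6 CCAAT boxes and 4 cell-cycle elements of either form, Cdk1 held 3 and 2, and Mki67 held 3 and 2. In the same window Ube2c held 6 and 1, Rrm2 held 1 CCAAT box and no cell-cycle element, and Birc5 held neither motif. Of 32851 promoters in the table, 33.8% held CCAAT and 15.99% held TTTGAA on either strand. The CCAAT box was found in 34 of 43 matched promoters of the G2 and mitosis list (79.1%) and in 20 of 32 of the S-phase list (62.5%), and TTTGAA in 14 (32.6%) and 6 (18.8%). The letters TTTGGCGC, 1 form of the E2F site, were found in 5 of the 32 S-phase promoters and 1 of the 43 G2 and mitosis promoters, against 0.417% of all promoters, again counting either strand. A further form, TTTCCCGC, was in 4 of the 32 and in none of the 43, against 0.895% of all promoters. A match is a run of letters and not a shown binding site.

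A deeper cell has more UMIs in which a rule gene can be seen, so the rule itself favours deeper cells. Cycling cells were deeper than the other cells of their library. Their median UMI count was 5546.5 to 22289 per library, 1.52 to 1.90 times that of the non-cycling cells (the 23960 alveolar cells with none of the 6 rule genes), and the highest medians were those of the 2-week mutant libraries (22289 and 20776, against 5546.5 to 11202 in the other 8). Sftpc, which the rule uses, stood at 58815 to 131840 CPM (UMI counts scaled to a common library size, as all CPM here) over the 10 libraries, and AT2 genes outside the rule are described with the non-cycling cells. Immune markers summed to at most 30.0 CPM and mesenchymal markers to at most 4.73 CPM, and no library had more than 3 cells with UMIs of at least 2 markers of either list. Endothelial markers summed to at most 9.40 CPM except in the 4-day neighbour library 1, at 99.0 CPM over 27 cells, of which 1 held at least 2 of them. Airway secretory markers (Scgb1a1 and related genes) summed to 43.3 to 984 CPM, with the highest value in the 2-week mutant library 1, where 84 of 739 cells held at least 2 of them. Ciliated markers summed to 13.8 to 222 CPM, highest in the Confetti RFP+ library, where 15 of 76 cells held at least 2 of the 5 markers, as did 7 of 27 in the 4-day neighbour library 1. These UMIs came mainly from Tppp3 and Dynlrb2, and Foxj1, the defining factor of ciliated cells, had no UMI in 8 libraries, 1 in the 2-week neighbour library 1 and 21 in the 2-week mutant library 1. Scrublet called 118 of the 1739 cells doublets, and libraries shared 1 to 17 barcodes per pair, at most 0.35% of the smaller one. The female transcript Xist without a Y-linked gene marked 100% of scorable cycling cells in both Confetti libraries, 74.2% and 85.7% in the 4-day mutant and neighbour libraries 1, 23.9% and 26.3% in the 2-week libraries 1, and 0% to 4.35% in all 4 libraries numbered 2. Sex therefore moves with the library number and separates Confetti from Red2Kras. The study's methods say that libraries were made across 2 days, and do not say whether the number marks a day. The parts of sex and day in the differences below were not tested.

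Of the 1739 cells, 893 had UMIs of all 6 rule genes, 535 of 5 and 311 of 4. Just outside the rule lay 317 cells with 3 of the 6, whose median depth was 13878 UMIs against 10052 in the cells with 4. These medians pool libraries of unlike depth: the deep 2-week mutant libraries held 140 and 60 of the first and 115 and 42 of the second. Within libraries the order went both ways, at 19146 against 18556 UMIs in the 2-week mutant library 1 and 6245.5 against 7506 in the 4-day mutant library 2. A further 2711 cells had 1 or 2. The limits on depth, Sftpc and Ptprc left out 72, 33 and 216 cells that otherwise met the rule, and 67 of the 72 cells over the UMI limit came from the 2-week mutant library 1.

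In the Confetti lungs, 1.98% (RFP+, 76 of 3840) and 2.17% (YFP+, 88 of 4053) of alveolar cells were cycling. In the 4-day mutant libraries the share was 4.07% (152 of 3734, exact 95% interval 3.46 to 4.75) and 10.5% (101 of 960, 8.65 to 12.6), and in the 2-week mutant libraries 18.4% (739 of 4027, 17.2 to 19.6) and 7.38% (163 of 2209, 6.32 to 8.55). The neighbours gave 1.57% (27 of 1724) and 6.73% (197 of 2929) at 4 days and 4.24% (181 of 4267) and 1.52% (15 of 984) at 2 weeks. Intervals cover counting error only. The mutant library was the higher one in each of the 4 same-numbered pairs and in 14 of 16 pairs overall. The neighbour range nevertheless reached into the mutant range. The mean was 10.1% ± 6.11 in mutant libraries and 3.51% ± 2.49 in neighbours (SD, n = 4 each), a difference of 6.57 percentage points that did not pass an exact two-sided permutation test (p = 0.0857, adjusted over 2 tests p = 0.171; the smallest p this design allows is 0.0286). Over the same-numbered pairs the exact sign-flip test gave p = 0.125, the smallest that 4 pairs allow. Since a deeper cell has more UMIs in which a rule gene can be seen, each cell was also thinned to 2000 UMIs and called cycling with at least 2 rule genes; the difference was then 5.13 points (exact permutation p = 0.143), with shares of 3.99% and 10.8% at 4 days and 13.7% and 5.66% at 2 weeks in the mutant libraries, and 1.62% and 6.59% and then 4.15% and 1.32% in the neighbours. With the rule's own minimum of 4 genes after thinning the means were 3.17% and 1.67%, a difference of 1.496 points (exact permutation p = 0.171). Without the 4-day mutant library 1 the difference was 8.57 points and reached the smallest p of its design (exact permutation p = 0.0286), and without the 2-week mutant library 1 it was 3.81 points (exact permutation p = 0.143). A reference was 1589 Ptprc-positive barcodes with fewer than 5 Sftpc UMIs, which the rule leaves out. Of these, 9.25% (Rrm2) to 15.8% (Mki67) had a UMI of a given rule gene at a median depth of 7604 UMIs. In the cycling cells it was 78.0% (Rrm2) to 95.9% (Cdk1) at 12581. The rule chose the cycling cells by these same genes, so this contrast is a description only.

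**Figure D1:**
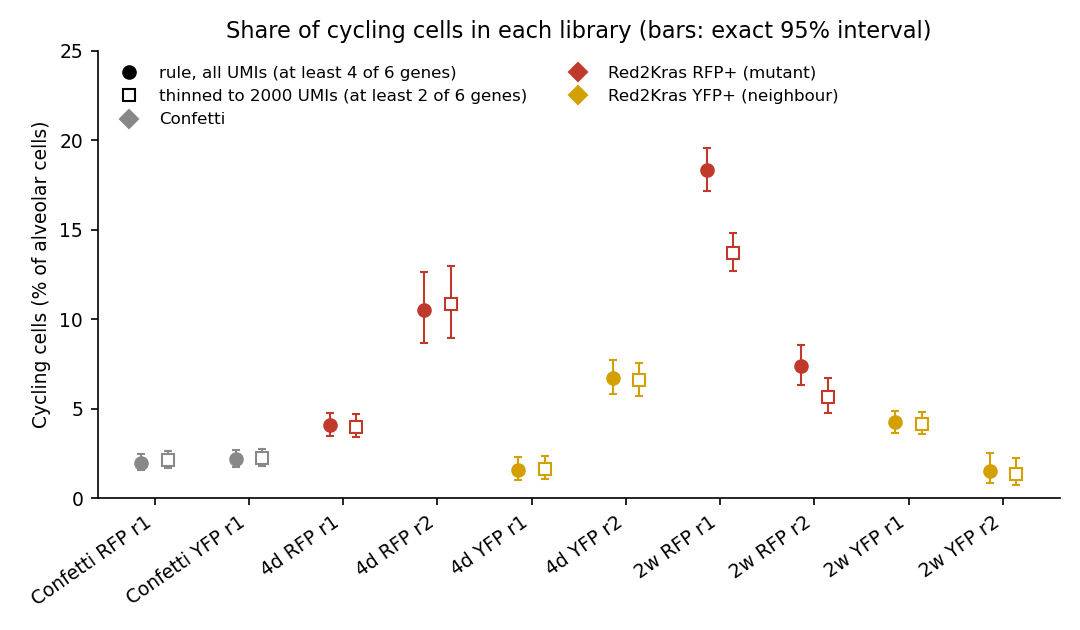
Share of alveolar cells that were cycling (y axis, %) in each of the 10 libraries (x axis; 4d and 2w are 4 days and 2 weeks, r1 and r2 the replicates). Filled circles are the rule on all UMIs, open squares cells with at least 2 rule genes after thinning to 2000 UMIs, bars exact 95% intervals, and the 2-week mutant library 1 stands highest at 18.4%.

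The balance between phases was measured as the UMIs of an S-phase and DNA-replication list as a percentage of those plus the UMIs of a G2 and mitosis list, summed over the cycling cells of a library. Both Confetti libraries stood at the low end, at 16.8% and 16.7%. The 4-day mutants had 18.2% and 26.5%, the 4-day neighbours 20.9% and 22.5%, the 2-week mutants 29.8% and 29.9%, and the 2-week neighbours 26.0% and 24.9%. All 4 libraries of 2-week Red2Kras lungs therefore stood above both Confetti libraries, the mutants above the neighbours. Over the 4 mutant and 4 neighbour libraries of both times the means were 26.1% ± 5.504 and 23.6% ± 2.31 (SD), and the difference of 2.54 points did not pass (exact two-sided permutation p = 0.400; adjusted over 2 tests p = 0.400). With cells chosen after thinning (at least 2 rule genes) it was 0.981 points (exact permutation p = 0.657), and the order of the 2-week libraries 1 turned, with 25.7% in the mutant and 26.2% in the neighbour library. With at least 4 rule genes after thinning the difference was 0.484 points (exact permutation p = 0.857), the mutant library was the higher one in 1 of 4 same-numbered pairs, and both 2-week pairs turned (21.2% against 21.7% and 25.2% against 25.6%). Single cells ranged widely in every library: in the 2-week mutant library 1 the median cell lay at 31.2%, with a 10th percentile of 8.51% and a 90th of 62.6%, and in the Confetti RFP+ library at 14.8%, with 4.14% and 35.8%.

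**Figure D2:**
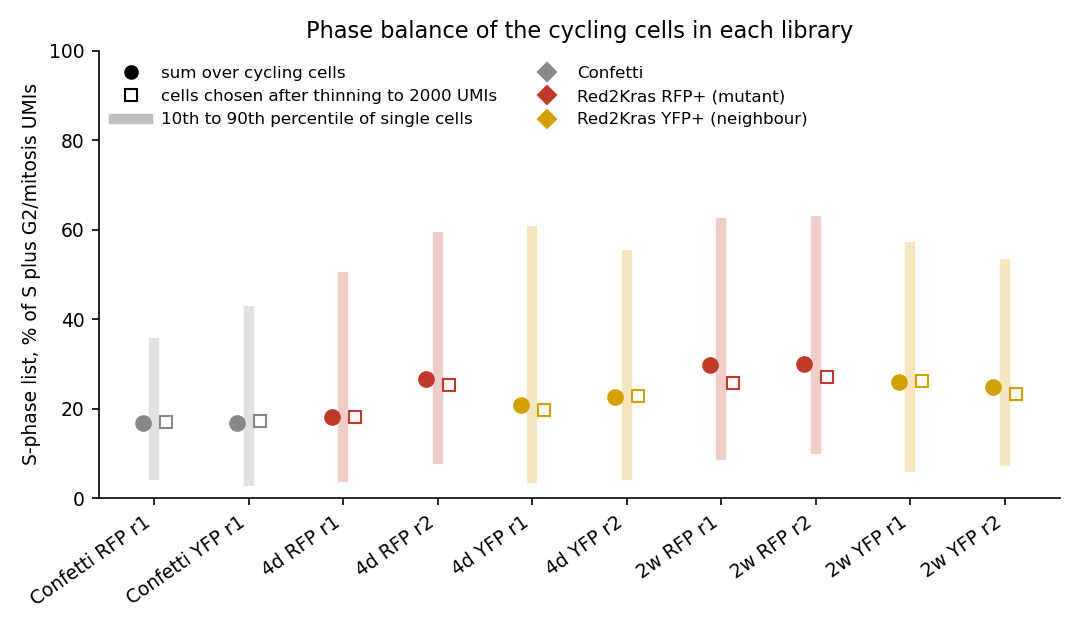
S-phase share of cell-cycle UMIs (y axis, %) in the cycling cells of each library (x axis). Circles are sums over cells chosen by the rule, open squares cells with at least 2 rule genes after thinning to 2000 UMIs, and pale bars the 10th to 90th percentile of single cells; the Confetti circles lie at 16.7% and 16.8% and the 2-week mutant circles at 29.8% and 29.9%.

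Cycling cells were set against the non-cycling cells of their own library, over 5554 genes with a mean of at least 20 CPM in either class. The 6 rule genes separate the classes by construction, and genes that vary with them through the cell cycle are not independent of the choice, so these values describe the cells and were not tested. Of the S-phase list 39 of 40 genes, and of the G2 and mitosis list 48 of 50, were higher in cycling cells in all 10 libraries, with a median log2 ratio of 3.26 and 5.41 against 0.16 over all genes, of which 25.4% were higher and 9.88% lower in every library. Outside the lists large ratios belonged to replication-linked histone genes, such as Hist1h2ap (851 against 3.05 CPM, log2 7.98), to Pbk (a mitotic kinase, 220 against 0.294 CPM, log2 7.55), to Cdkn3 (a phosphatase of cyclin-dependent kinases, log2 7.01), to Pclaf (a PCNA-binding factor, log2 6.98) and to Lockd (a long noncoding RNA transcribed beside Cdkn1b, 312 against 2.88 CPM, log2 6.29). Inhibitors were among the genes that were higher in every library, with a log2 ratio of 3.20 for Cdkn2d (p19Ink4d) and 3.13 for Cdkn2c (p18Ink4c), as were the pocket-protein genes Rbl1 (2.97) and Rb1 (1.45) and the E2F gene E2f1 (2.98). Ccnd1 (cyclin D1) had 0.14 and was higher in 6 of 10 libraries.

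Of 19 AT2 identity genes, 16 (84.2%, against 9.88% of all genes) were lower in cycling cells in all 10 libraries, with a median log2 ratio of -0.64. Scd1 (a fatty acid desaturase) stood at 2286 against 5459 CPM (log2 -1.49), Lyz2 (lysozyme) at 15168 against 32215 (-1.05), Cebpa (a transcription factor of AT2 differentiation) at 104 against 207 (-1.01), and Abca3 (the lamellar body lipid transporter) at 263 against 477 (-0.75). Sftpd (surfactant protein D) and Nkx2-1 (the lung lineage factor) had -0.07 and -0.14, with libraries on both sides of 0. CPM are shares of a cell's UMIs, so a class that gains transcripts elsewhere loses share here. Of the 9 primed AT2 genes measured, 4 were lower in every library (44.4%, against 9.88%), among them Lrg1 (-0.98) and Lcn2 (lipocalin 2, -0.41). The DATP list was mixed, with a median of 0.37, and Sfn (stratifin) was its 1 gene of 13 higher in all libraries, a smaller share than the 25.4% of all genes. In the glycolysis list 4 of 12 genes, Gapdh, Pgk1, Pgam1 and Tpi1, were higher in all 10 libraries (log2 0.59 to 0.87), a share of 33.3% that is near that of all genes, whereas Aldoa (aldolase A) was lower in all 10 (-1.57).

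**Figure D3:**
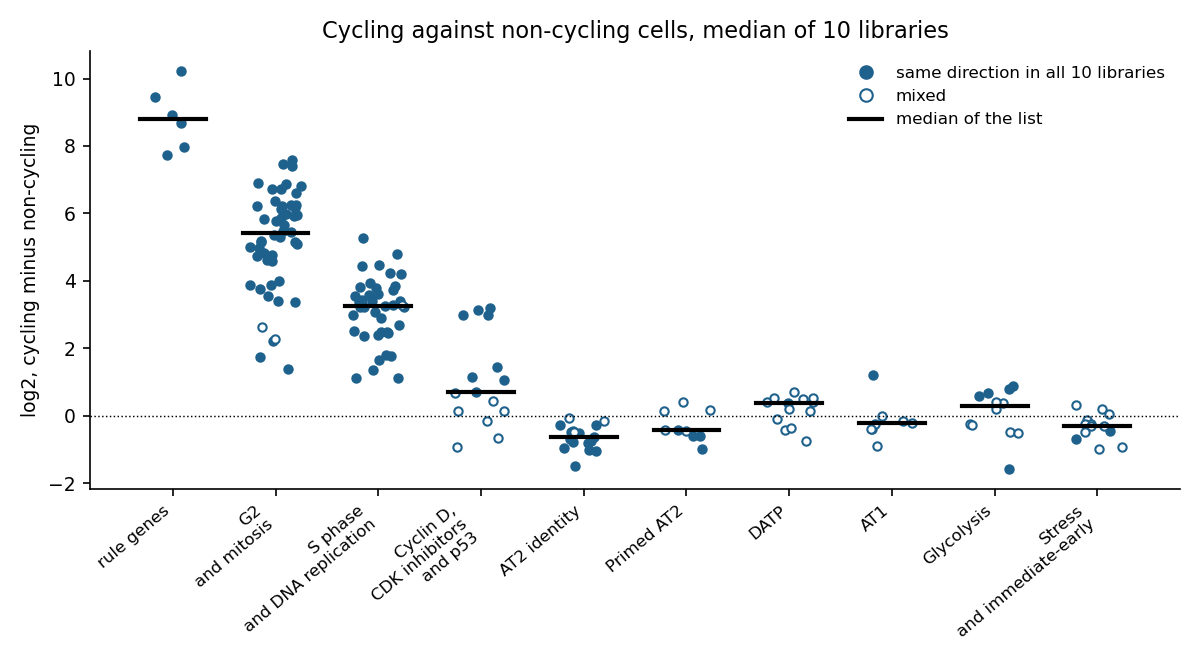
Log2 ratio of cycling to non-cycling cells (y axis, median of 10 libraries) for each gene of 10 lists (x axis), the rule genes first. Filled points had the same direction in all 10 libraries, and bars are list medians, from 5.41 for G2 and mitosis to -0.64 for AT2 identity.

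To ask what distinguishes a dividing mutant cell from a dividing wildtype neighbour of the same lungs, UMIs were summed over the cycling cells of each library and fitted with edgeR's quasi-likelihood test over 9823 genes. Averaged over both times, 16 genes were higher and 4 lower in mutant cells (20 genes, 0.204% of those tested, at a Benjamini-Hochberg adjusted p under 0.05; 1131 had an unadjusted p under 0.05). Dlk1 (a Notch-related transmembrane ligand; chr12:109452823-109463336, GRCm38) led them. It was at 122 and 52.0 CPM in the 4-day mutant libraries and at 240 and 498 CPM in the 2-week mutants. Neighbours had 8.32 CPM in the 2-week library 1 and no UMI in the other 3, and Confetti cells had none. The 2 groups did not overlap (fitted log2 difference 8.28 ± 0.72 SE, adjusted p = 0.000365), and the size of a fitted fold against libraries at 0 depends on the prior count.

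Among the other higher genes, Cxcl3, a neutrophil-attracting chemokine (chr5:90786103-90789600), had 113, 134, 176 and 131 CPM in the mutant libraries and 6.80, 16.1, 29.4 and 66.2 CPM in the neighbours, with no overlap (log2 2.58 ± 0.30, adjusted p = 0.00357). Pf4 (platelet factor 4, the chemokine Cxcl4), which lies close by at chr5:90772435-90773383, had 172, 198, 155 and 109 CPM against 17.0, 18.6, 23.7 and 126 CPM, so that the 2-week neighbour library 2, of 15 cells, lay inside the mutant range (log2 2.35 ± 0.40, adjusted p = 0.0312). Ereg (epiregulin, a ligand of the EGF receptor) rose by 3.05 ± 0.52 (log2, adjusted p = 0.0312) and Plaur (the urokinase receptor, an ERK-responsive gene) by 3.31 ± 0.51 (adjusted p = 0.0174). Plaur stood at 22.7, 80.8, 86.5 and 133 CPM in mutant cells and at 3.40, 1.86, 19.8 and 46.3 CPM in neighbours, in the order 4 days then 2 weeks.

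Cldn4 (claudin 4, a tight junction protein and DATP marker) had 15.1, 50.7, 59.6 and 83.2 CPM in mutant cells against 0, 1.24, 17.9 and 0 CPM in neighbours (log2 3.55 ± 0.57, adjusted p = 0.0213). S100a14 (an S100 calcium-binding protein) had 86.9, 152, 246 and 477 CPM against 51.0, 27.9, 67.8 and 59.5 CPM (log2 2.10 ± 0.32, adjusted p = 0.0174). Also higher were Slc25a37 (mitoferrin, the mitochondrial iron carrier, log2 2.60), St8sia6 (a sialyltransferase, 2.75), Phlda2 (an imprinted gene, 1.95), Bok (a Bcl-2 family member, 1.88), Phgdh (the first enzyme of serine synthesis, 1.78) and Mettl1 (a tRNA methyltransferase, 1.72), with edgeR adjusted p between 0.0174 and 0.0408. Srm (spermidine synthase, 2.09) and the ribosomal protein gene Rpl12 (1.34) passed as well, but fell outside the rule for named genes and were picked after their values were seen. Phgdh had 49.9, 54.8, 70.1 and 75.2 CPM in mutant cells and 30.6, 9.92, 21.1 and 19.8 CPM in neighbours, without overlap.

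The 4 lower genes were Bcan (brevican, a matrix proteoglycan, log2 -2.90), Fam189a2 (-1.82), Ramp1 (a co-receptor for the peptide CGRP, -1.72) and the unnamed transcript 9530077C05Rik (-1.69, outside the rule for named genes), with edgeR adjusted p of 0.0174 to 0.0416. Fam189a2 had 21.2, 13.7, 11.1 and 10.1 CPM in mutant libraries and 78.2, 44.0, 40.9 and 46.3 CPM in neighbours. Ramp1 had 59.7, 35.6, 25.1 and 9.48 CPM against 95.2, 115, 78.7 and 112 CPM. Neither gene overlapped between the groups. Mme (neprilysin), S100g (a calcium-binding protein of AT2 cells) and Nkd1 (an inhibitor of Wnt signalling) also lay lower in every mutant library, at log2 -1.75, -1.53 and -1.63, and each missed the threshold at an edgeR adjusted p = 0.0532 but passed with the replicate number as a block (edgeR adjusted p = 1.5e-11, 1.5e-11 and 8.9e-09). Over all tested genes 3.83% were higher and 2.24% lower in mutant cells without overlap.

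These counts depend on single libraries and on the pairing. Without the 2-week neighbour library 1 only 1 gene, Dlk1, passed, without the 4-day neighbour library 2 there were 3, and without the 2-week mutant library 1 there were 139; Dlk1 passed in all 10 fits that left out 1 library. Blocking on the number of the replicate, 539 genes were higher and 348 lower of 9348 tested (9.49%), among them all 20 that passed without it, in a fit with 2 residual degrees of freedom against 4 and a much larger prior (52.9 against 9.84 degrees of freedom).

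**Figure D4:**
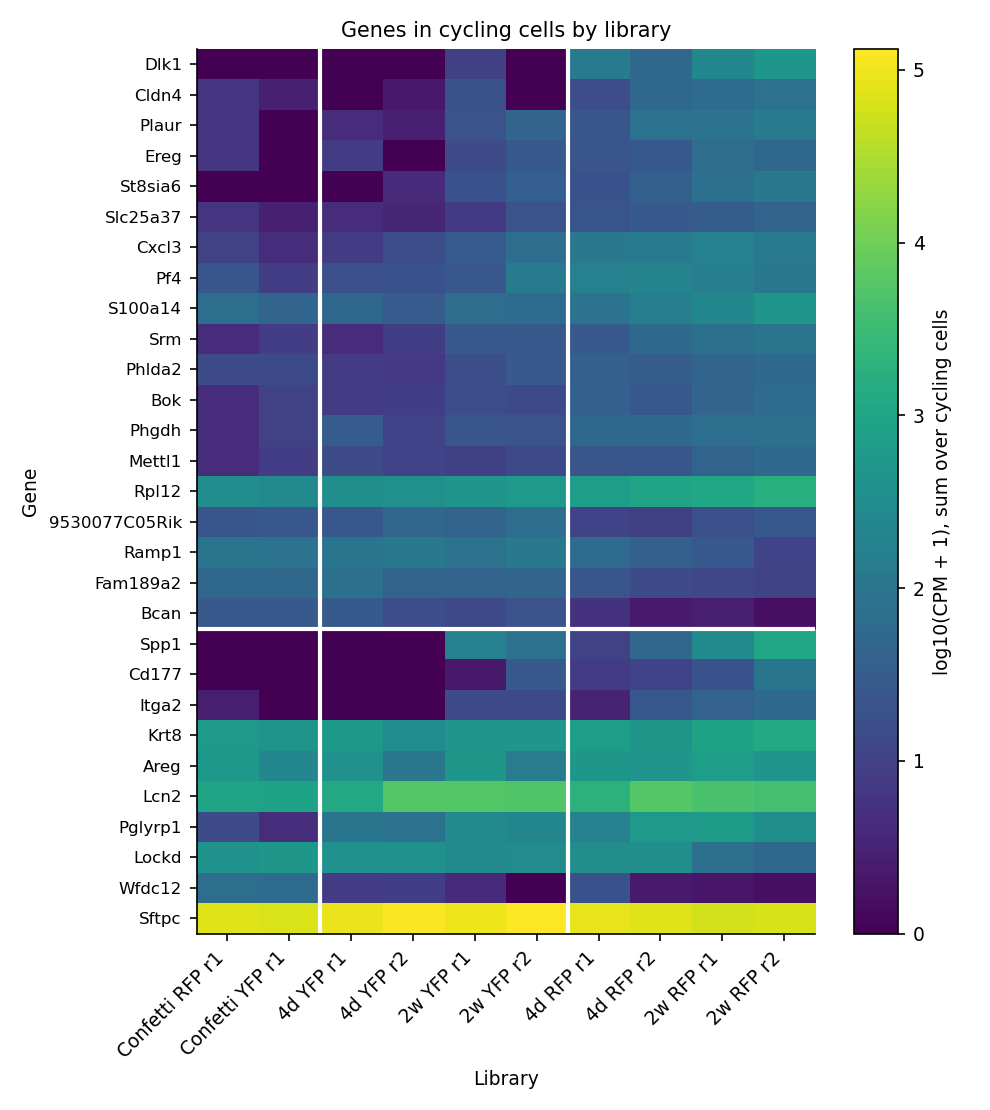
Level of each gene (rows; colour is log10 of CPM + 1 summed over cycling cells) in the 10 libraries (columns, split by white lines into Confetti, neighbour and mutant). Rows above the line are genes that passed between mutant and neighbour over both times, from Dlk1 at the top, which is dark in Confetti and neighbour columns, to Bcan; rows below were chosen for their role and run from Spp1 to Sftpc.

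By time, 1 gene passed at 2 weeks (0.0102% of those tested; 1224 at an unadjusted p under 0.05) and 2 at 4 days (0.0204%; 367 unadjusted) by edgeR, against 25 and 6 by DESeq2. Dlk1 passed at both times, and at each its call was lost without either neighbour library of that time. At 4 days the mutant cells had at least 61.6 times the Dlk1 of neighbours, taking the neighbours at 3 UMIs over both libraries, and at 2 weeks the means were 369 CPM ± 183 and 4.16 ± 5.88 (SD, n = 2 each). Cxcl3 was the other gene at 4 days (124 CPM ± 14.7 against 11.5 ± 6.59; log2 3.16 ± 0.44 SE, edgeR adjusted p = 0.0264). The difference of the 2 times' differences, a contrast added after the results were seen, called no gene by edgeR (299 at an unadjusted p under 0.05; DESeq2 was not run for it). At 2 weeks Lockd came closest to the threshold among the lower genes, with 75.5 and 51.4 CPM in mutant cells against 276 and 291 CPM in neighbours (log2 -2.15 ± 0.33, edgeR adjusted p = 0.0700, and 7.1e-11 with the block); at 4 days it had 335 and 340 CPM against 391 and 385 CPM. With the block, 524 genes were higher (5.61%) and 425 lower (4.55%) at 2 weeks, 10.2% in all, and 177 (1.89%) and 32 (0.342%) at 4 days, 2.24% in all.

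Few list members passed between mutant and neighbour over both times, as did 0.204% of all genes; with the block, 5.77% of all genes were higher and 3.72% lower. Of the 17 tested DATP genes, all 17 had a positive difference (median log2 1.70 against -0.00 over all genes) and 2, Cldn4 and Ereg, passed; with the block 16 did. Without the 2-week neighbour library 1 none passed and the median was 4.43, without the 4-day neighbour library 2 none passed either, and without the 2-week mutant library 1 there were 8. Itga2, an integrin chain and DATP marker, had 2.27, 24.6, 39.8 and 54.7 CPM in mutant cells and 0, 0, 14.1 and 13.2 CPM in neighbours and did not pass (adjusted p = 0.0863, and 7.1e-08 with the block). Of 18 ERK targets, Plaur passed (9 with the block). Of 6 genes of the Cd177+ mixed state Dlk1 passed (5 with the block), and of 14 glycolysis genes and 13 stress genes none did. With the block, 9 of 13 tested glycolysis genes and 9 of 13 stress genes passed. The 51 G2 and mitosis genes and the 45 S-phase genes had no call, with medians of -0.23 and 0.04; with the block 11 and 2 were lower, the second a share near that of all genes. Of 19 AT2 identity genes none passed, 16 had a negative difference, and the block called 7 lower and 1 higher. Myc had 15.9, 17.8, 28.0 and 12.8 CPM in mutant cells and 3.40, 2.48, 5.12 and 0 CPM in neighbours, without overlap, and missed the threshold (edgeR adjusted p = 0.0532; passed with the block).

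Against the Confetti cells, cycling mutant cells at 2 weeks had 637 of 9823 genes higher (6.48%) and 440 lower (4.48%) by edgeR. That was 11% in all, and 2774 had an unadjusted p under 0.05. Against neighbours at 2 weeks the share that passed was 0.0102% without the block and 10.2% with it, so the contrast between the comparisons depends on the block. The Confetti comparison has 2 libraries on each side, and the Confetti pair also differs from the mutants in sex and depth. The study's methods list a single Confetti set and say that libraries were made across 2 days, without placing each library on a day. A part of the day in these differences was not tested. The labels give the Confetti libraries no replicate number and do not say whether both colours came from the same lungs, and the fit counts them as 2 libraries. Without the Confetti YFP+ library 126 genes passed, without the Confetti RFP+ library 372, and without the 2-week mutant library 2 240.

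Several genes had no UMI in 164 Confetti cycling cells, so their folds are lower bounds that take the Confetti pair at 3 UMIs. Spp1 (osteopontin) had 286 and 1007 CPM in mutant cells, at least 151-fold higher. Dlk1 was at least 105-fold higher, Gzme (granzyme E) with 144 and 224 CPM at least 58.9-fold, Gkn2 (gastrokine 2) with 53.8 and 281 CPM at least 33.9-fold, St8sia6 at least 29.9-fold, Kng2 (a kininogen) at least 22.9-fold, Cd177 with 18.3 and 96.0 CPM at least 11.5-fold and Cd38 (an NAD-consuming ectoenzyme) at least 10.4-fold, with edgeR adjusted p of 0.000657 to 0.0167. Cd177, Gkn2 and Spp1 were several times higher in the second mutant library than in the first. Without either Confetti library Cd38 did not pass, and Cd177 failed also without the 2-week mutant library 2. Meg3, a noncoding RNA of the imprinted cluster that also holds Dlk1, had 198 and 923 CPM against 1.74 and 1.83 CPM (log2 8.26 ± 1.32, edgeR adjusted p = 0.00356).

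In the other direction, Wfdc12 (a whey acidic protein family member) had 69.4 and 60.5 CPM in Confetti cells and 1.01 and 0.611 CPM in mutant cells, 67.9-fold lower (log2 -6.09 ± 0.65, edgeR adjusted p = 0.000657). Pon1 (paraoxonase 1), Cxcr4 (a chemokine receptor), Prr15, Gpx3 (a secreted glutathione peroxidase), the histone gene Hist1h2ad and Fam167a were lower by 4.09 to 4.94 on the log2 scale, and Bcan had a log2 difference of -4.198. S100g and Mme, which missed the threshold against neighbours, were lower than in Confetti cells (log2 -2.90 and -2.80; edgeR adjusted p = 0.00316 and 0.00485). S100g stood at 761 and 264 CPM in mutant cells and 3425 and 4293 CPM in Confetti cells, without overlap. Over all genes, 32.7% were higher and 32.5% lower in mutant cells without overlap.

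Of 51 tested G2 and mitosis genes, 22 were lower in mutant than in Confetti cycling cells, against 4.48% of all genes, 29 did not pass, none was higher, and all 51 differences were negative (median log2 -1.01 against 0.03 over all genes). Ckap2 (a spindle protein) had 61.8 and 40.4 CPM in mutant cells against 246 and 354 CPM (log2 -2.52, edgeR adjusted p = 0.00417). Ect2 (the exchange factor that starts cytokinesis) had 69.9 and 49.5 CPM against 252 and 266 CPM (log2 -2.11, edgeR adjusted p = 0.00403), and Cenpf (a kinetochore protein) 167 and 197 CPM against 505 and 480 CPM (log2 -1.44, edgeR adjusted p = 0.0277). The cyclin B genes lay near the threshold, with Ccnb1 at log2 -1.06 and Ccnb2 at -1.02 (edgeR adjusted p = 0.0493 and 0.0478), and the first passed in 1 and the second in 0 of 10 fits that left out a library. Lockd was lower by 2.84 on the log2 scale (edgeR adjusted p = 0.000774).

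The rule itself uses 5 late genes among its 6, so these differences are not independent of the choice of cells. All 6 rule genes were also lower in mutant than in Confetti cells (median log2 -0.69), and Top2a passed. The size of this shift moved with how the cells were chosen. The 2-week mutant cells were also the deepest, and the part of depth in the shift was not tested. When cells were chosen after thinning to 2000 UMIs (at least 2 rule genes), 8 of the 51 genes were lower and none higher, with a median of -0.69. With at least 5 rule genes 15 were lower (median -0.85), and with at least 3 it was 29 (median -1.18). Leaving out a library of the comparison gave 4 without the Confetti YFP+ library, 9 without the Confetti RFP+ library, 9 without the mutant library 1 and 6 without the mutant library 2, with a median between -1.03 and -0.95.

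Of 45 S-phase genes 5 were higher, against 6.48% of all genes, and none lower in mutant cells, with a median of 0.23. Among them were Mcm2 (log2 1.40) and Mcm3 (1.38, both subunits of the replicative helicase), Prim1 (a primase subunit, 1.17), and Ung (uracil-DNA glycosylase), which had no UMI in Confetti cells and was at least 5.89-fold higher. With cells chosen after thinning 2 of the 45 passed, and the median was 0.11. In the list of D cyclins, inhibitors and p53 genes, Cdkn2d, Rb1, Rbl1 and Cdkn2c were lower (log2 -1.81 to -1.65) and Cdkn2b (p15Ink4b), Myc and Ccnd1 were higher, out of 21 tested, against 4.48% of all genes lower and 6.48% higher. The lower genes were among those higher in cycling than in non-cycling cells of every library, so they are not independent of the choice of cells. Cdkn2d had 91.4 and 91.1 CPM against 344 and 299 CPM. Ccnd1 had 257 and 380 CPM against 144 and 145 CPM (log2 1.14, edgeR adjusted p = 0.0461), and its call was lost without either Confetti library, the 2-week mutant library 2 or the 4-day mutant library 2, and by DESeq2. Cdkn2a (p16Ink4a and p19Arf) had 9.40 and 36.4 CPM against 1.74 and 0 CPM and did not pass (edgeR adjusted p = 0.0521).

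**Figure D5:**
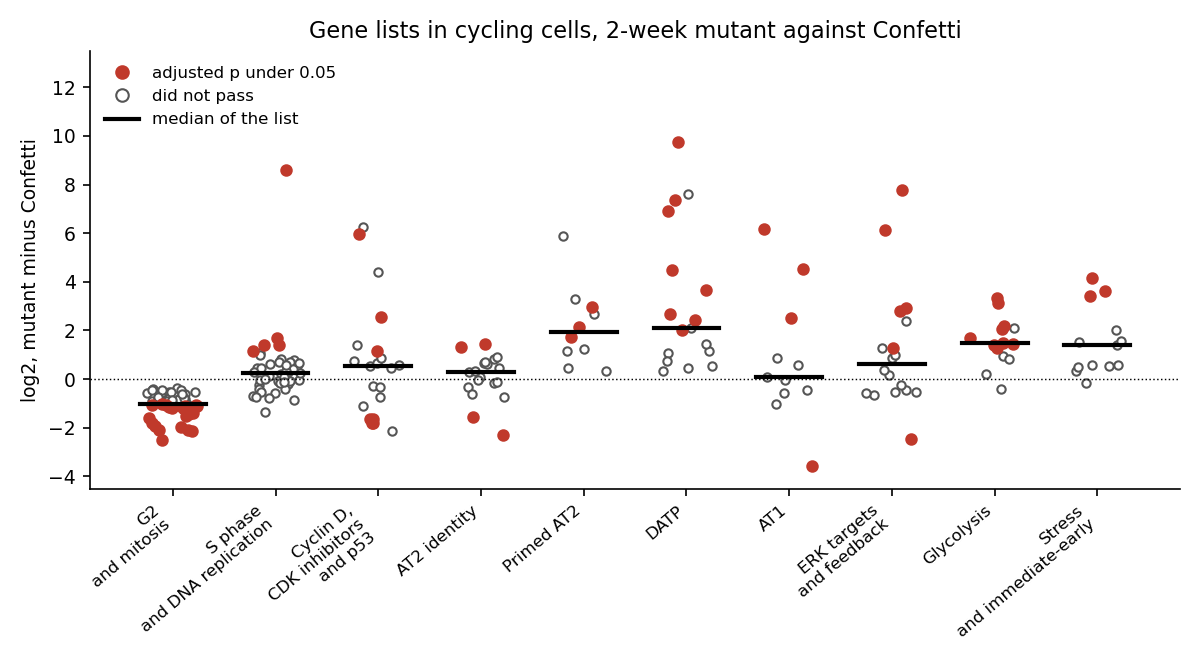
Log2 difference between 2-week mutant and Confetti cycling cells (y axis) for each tested gene of 10 lists (x axis). Filled points passed at an edgeR adjusted p under 0.05, open points did not, and bars are medians; all 51 G2 and mitosis genes lie below 0 and all 17 DATP genes above it, and points of genes with no Confetti UMI depend on the prior count.

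Of 17 tested DATP genes 8 were higher, against 6.48% of all genes, none was lower and 9 did not pass, and all 17 differences were positive (median log2 2.11). Krt7 had 768 and 1413 CPM in mutant cells against 88.5 and 82.5 CPM in Confetti cells (log2 3.67, edgeR adjusted p = 0.00312), Krt19 328 and 659 CPM against 92.0 and 89.8 CPM, and Cldn4 59.6 and 83.2 CPM against 5.21 and 1.83 CPM. Itga2 was at 39.8 and 54.7 CPM against 1.74 and 0 CPM. Krt18, F3 (tissue factor), Ereg and Procr (the protein C receptor, with no Confetti UMI and at least 10.7-fold higher) passed as well. Krt8 had 905 and 1361 CPM against 587 and 447 CPM and missed the threshold (log2 1.15, edgeR adjusted p = 0.0552). The count fell to 1 of 17 without the Confetti YFP+ library. Of 6 tested genes of the Cd177+ mixed state 5 were higher (Spp1, Dlk1, Cd177, Cd38 and Meg3), and 3 were without either Confetti library. These state lists follow states described in the same lungs, so their direction is not independent evidence.

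Of 14 tested glycolysis genes 9 were higher, against 6.48% of all genes, none was lower and 5 did not pass (median log2 1.47). Aldoa stood at 256 and 513 CPM against 31.2 and 45.8 CPM (log2 3.34, edgeR adjusted p = 0.00265), although its symbol belongs to 2 gene IDs, 1 of them tested, and reads shared by them may be lost. Then came Pfkl (3.13), Eno1 (2.19) and Ldha (lactate dehydrogenase A, 974 and 1439 CPM against 304 and 273 CPM, log2 2.07). Without the Confetti YFP+ library or without the mutant library 2 the count was 2. Of 18 ERK targets and feedback genes, Plaur, Etv4, Dusp5, Egr1 and Dusp6 were higher and Spry2 was lower. The dual-specificity phosphatases Dusp5 and Dusp6, which switch ERK off, had log2 2.92 and 1.26, whereas Spry2 (a Sprouty inhibitor of receptor signalling) had 118 and 56.6 CPM against 319 and 737 CPM (log2 -2.47). In the stress list 3 heat shock genes of 13 passed, among them Hspa1a (1327 and 490 CPM against 74.6 and 71.5 CPM; edgeR adjusted p = 0.0451), and in the NF-kB list Cxcl1 alone of 15, a share near the 6.48% of all genes that were higher. Hspa1a stood at 1100 CPM in the 2-week neighbour library 1 and at 66.2 CPM in library 2.

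Of 19 AT2 identity genes 2 were higher and 2 lower, against 6.48% and 4.48% of all genes. Cxcl15 (lungkine, log2 1.43) and Cebpa (1.34) were higher in mutant cells, Hc (complement C5, -2.32) and Etv5 (an ETS factor that maintains AT2 cells, -1.57) were lower, and 15 did not pass. Hc had 427 and 127 CPM in mutant and 1288 and 1492 CPM in Confetti cells. Among 11 AT1 genes, Pdpn (podoplanin; 67.7 and 134 CPM against 5.21 and 3.67 CPM, log2 4.51, edgeR adjusted p = 0.00171), Aqp5 (aquaporin 5, log2 2.51) and Akap5 were higher and Rtkn2 was lower (-3.58), whereas the AT1 genes Ager (668 and 1187 CPM against 855 and 878 CPM) and Hopx (25.8 and 79.2 CPM against 46.9 and 60.5 CPM) overlapped between the groups. Primed AT2 genes Lrg1, Lcn2 and Socs3 were higher, 3 of 10 against 6.48% of all genes, with log2 2.94, 2.13 and 1.71. Of 3 tested ciliated markers, Dynlrb2 and Tppp3 were lower in mutant cells (4.48% of all genes were), and ciliated markers summed to 42.9 and 13.8 CPM there against 222 and 181 CPM in Confetti cells.

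Neighbours were set against Confetti cells to see whether wildtype cells beside mutants divide in a different state. Only Pglyrp1 (a bactericidal peptidoglycan recognition protein; chr7:18871331-18890459) passed by edgeR (0.0102% of genes; 787 at an unadjusted p under 0.05; 8 genes by DESeq2). It had 287 and 225 CPM in 2-week neighbours, 13.9 and 3.67 CPM in Confetti cells, 95.2 and 81.2 CPM in 4-day neighbours and 184 to 671 CPM in the 4 mutant libraries (neighbour minus Confetti log2 5.17 ± 0.68, adjusted p = 0.0254), so that no Red2Kras library overlapped with Confetti. Between 2-week neighbours and Confetti cells, 20.7% of all genes were higher and 22.9% lower without overlap. The Pglyrp1 call was lost without any 1 of the 4 libraries compared. No list member passed. The 10 primed AT2 genes all had a positive difference (median log2 2.38), as in mutant cells, against 52.0% of all genes. Lcn2 had 5508 and 5372 CPM in neighbours and 977 and 918 CPM in Confetti cells, and Lrg1 1146 and 1250 CPM against 186 and 185 CPM. Of the G2 and mitosis genes 49 of 51 had a negative difference, with a median of -0.68 against 0.03 over all genes. These genes are not independent of the choice of cells. The mutant and neighbour comparisons share the Confetti libraries. The neighbour side holds 181 and 15 cells.

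Whether the mutant and neighbour difference is itself particular to cycling cells was tested with the non-cycling cells of the same 8 Red2Kras libraries, as an interaction in edgeR with the library as a block. Of 12134 genes 10 had a larger and 16 a smaller mutant minus neighbour difference in cycling than in non-cycling cells (26 genes, 0.214%; 1065 unadjusted; 16 genes by DESeq2). Aqp5 had an interaction of log2 0.96 ± 0.16 (edgeR adjusted p = 0.00737), although it did not pass between mutant and neighbour cycling cells without the block (edgeR adjusted p = 0.106, and 6.4e-08 with it), whose values overlapped (313, 337, 681 and 1269 CPM in mutants against 248, 150, 258 and 361 CPM in neighbours, scaled jointly with the non-cycling cells). Non-cycling cells had 628, 568, 609 and 1376 CPM against 531, 473, 583 and 1148 CPM. The cycling level was below the non-cycling one in all 4 neighbour libraries and in 3 of the 4 mutant libraries. Hspa1a (log2 1.58), Hspa1b (1.42) and the mitochondrial chaperonin gene Hspe1 (0.76) had the same direction, as did Srm (1.26) and Phlda2 (1.28). In the other direction, Emp1 (an epithelial membrane protein) had an interaction of -2.33 ± 0.30 (edgeR adjusted p = 0.000510): non-cycling mutant cells had 21.1, 24.6, 172 and 49.2 CPM against 9.78, 2.30, 6.81 and 10.3 CPM, whereas cycling mutants and neighbours overlapped (43.9 to 69.9 and 17.5 to 68.4 CPM). Marcks (-1.80) and Cdkn1a (the p53 target p21, -0.83) were of this kind as well. Psrc1, Tubb5, Kif23, Ect2 and Cks1b, genes of the spindle and of division, also had smaller differences, and these touch the rule, since non-cycling cells were defined by the absence of its genes.

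The share of single cells with a UMI of a state's gene was compared between the classes. In cells thinned to 2000 UMIs, Krt8 was detected in 71.0% and 74.8% of cycling cells of the 2-week mutant libraries, against 62.6% and 63.4% of non-cycling cells. In the Ptprc-positive barcodes with fewer than 5 Sftpc UMIs it was detected in 1.83%. Cldn4 was detected in 6.63% and 8.59% of cycling and in 15.4% and 16.6% of non-cycling cells, and Itga2 in 4.74% and 6.13% against 13.4% and 8.67%. For these 2 DATP markers the share of cycling cells was the lower one in both libraries, the opposite of Krt8. Hmga2 (a chromatin protein) had 1.76% and 0% against 8.95% and 1.63%. Unthinned, 36.7% and 41.1% of cycling cells and 31.9% and 36.7% of non-cycling cells held a Cldn4 UMI, the reverse order. Pdpn went the other way, at 10.6% and 24.5% of cycling and 5.57% and 12.6% of non-cycling cells after thinning. Dlk1 was found in 8.39% and 15.3% of cycling and 9.45% and 11.9% of non-cycling cells, and Spp1 in 9.88% and 29.4% against 17.4% and 14.99%, so their order differed between the libraries; Spp1 also had a UMI in 41.6% of Ptprc-positive barcodes. These shares compare cells within 2 libraries and were not tested.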

How the data were processed

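Droplet 3′ single-cell libraries of sorted EpCAM+ lung cells were used. Values are unnormalized UMI counts in the form deposited, produced by Cell Ranger on GRCm38; the labels give version 3.1.0, whereas the file headers give another, and the chemistry is named differently by labels and methods. No sample column was left unmapped (0). The members, gene lists and tests were chosen with earlier results of these data known.

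Cells were selected on the stated thresholds, without normalization; Scrublet (scanpy 1.11.5, Python 3.11.15, expected doublet rate 0.8% per 1000 barcodes) marked doublets, which were kept and left out as an alternative. Counts were summed over the cycling cells of each library (157989 to 17362060 UMIs in the genes kept) and fitted in R 4.3.3 with edgeR 4.0.16 (TMM, filterByExpr, quasi-likelihood test, Benjamini-Hochberg over all genes tested, threshold 0.05), with all 10 libraries and 6 groups in 1 fit, so that the single Confetti libraries borrow the spread of the other groups and their mean is the Confetti level. DESeq2 1.42.0 was an alternative, beside other normalization, filters, rule settings and each library left out. The fitted log2 over both times is the mean of the differences at each time. Shares and phase balance were compared with two-sided exact permutation tests in scipy 1.17.1. On simulated counts with 200 genes changed 4-fold, 98% were recovered for mutant against neighbour over both times, 81% at 2 weeks and 83.5% for mutant against Confetti. False calls numbered 7, 6 and 11. The simulation gave the same change to every mutant library, spared the lowest genes and used the fitted trend of the spread. Recovery in the real libraries may be lower, so few calls do not show that genes are unchanged. No libraries were duplicates.

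Named genes were the rule genes, up to 8 genes per direction and comparison with the largest change among those that passed without overlap at a mean of at least 20 CPM in the higher group (filled by smallest p, and said not to pass), up to 4 per list by size of change, anchors named in advance, and up to 4 per direction of the interaction. Unnamed, mitochondrial, ribosomal and Y-linked genes were passed over. Other list members and Meg3, Srm, Rpl12 and 9530077C05Rik were named after their values were seen. The results of some genes that these rules name are not reported here. Gene positions are from GENCODE M21 (30921 of 31040 genes matched).

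Same-numbered RFP+ and YFP+ libraries deviated together from their group means (r = 0.280 at 4 days and 0.248 at 2 weeks, across 9823 genes, against 0.0867 to 0.149 between times) and shared their sex mix. The groups come from the same lungs per the labels, which do not say that a number marks a pool. The numbers were taken as pairs, a decision made after the counts of the fit with the block had been seen. The fit without the block is the one reported.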

Additional observations from a re-analysis of the deposited data

Results flagged for a closer look

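Of 44 groups of 4 libraries tested for a sample far from the others, 4 were picked out, and chance picks about 1 in 20. In the neighbour libraries these were Pf4 at 126 CPM in the 2-week library 2, Cldn4 at 17.9 CPM and Dlk1 at 8.32 CPM in the 2-week library 1, and Fam189a2 at 78.2 CPM in the 4-day library 1.

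The mutant minus neighbour difference was larger in cycling than in non-cycling cells for Aqp5 (by 0.96 on the log2 scale), Hspa1a (1.58), Hspa1b (1.42) and Hspe1 (0.76), by the edgeR interaction. It was smaller for Emp1 (-2.33), Psrc1 (-1.89), Tubb5 (-0.83) and Marcks (-1.80).

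Cells left out of the rule also carried the cell-cycle genes. Cells over the UMI limit were 8.31% of those that otherwise met the rule in the 2-week mutant library 1. Cells with fewer than 5 Sftpc UMIs were 11.4% in the 4-day mutant library 2 and 37.5% in the 2-week neighbour library 2.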

How the results depend on the processing

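None of the group differences in cycling share, phase balance and gene level recomputed under each alternative changed sign. The order within single library pairs and of some detection shares did turn with thinning, as given above. Of the medians given for the S-phase, G2 and mitosis, DATP and glycolysis lists, that of the S-phase genes for mutant against neighbour over both times (0.04) turned, to between -0.06 and -0.00 in 6 alternatives, thinning among them. For mutant against neighbour over both times (20 genes), DESeq2 gave 58, RLE normalization 32, no filter on low counts 319, both Confetti libraries as 1 group 73, at least 3 rule genes 40, at least 5 rule genes 33, no Sftpc minimum 11 and no upper UMI limit 42, and leaving out 1 library gave 1 to 139. At 2 weeks (1 gene) the counts were 25 with DESeq2, 275 with no filter, 2 with both Confetti libraries as 1 group, 0 with no Sftpc minimum and 0 with no UMI limit, and 0 to 170 without 1 library. At 4 days (2 genes) they were 6 with DESeq2, 69 with no filter, 0 with no Sftpc minimum and 0 with no UMI limit, and 0 to 11 without 1 library. With the replicate block the counts were 887 over both times, 949 at 2 weeks and 209 at 4 days. For mutant against Confetti (1077 genes) DESeq2 gave 550, no filter 1626 and leaving out 1 library 126 to 1215. For neighbour against Confetti (1 gene) DESeq2 gave 8, no filter 155, no Sftpc minimum 0 and leaving out 1 library 0 to 3. For the interaction (26 genes) DESeq2 gave 16, no filter 80 and leaving out 1 library 15 to 72. The difference in cycling share ran from 3.81 to 8.57 points and that in phase balance from 1.27 to 5.17 points without 1 library. The causes were not tested. Of 111 gene results that passed, 52 did so without the Confetti YFP+ library, 68 without the Confetti RFP+ library, 88 by DESeq2 and 97 with cells chosen after thinning. Depth limits the 2-week neighbour library 2 (15 cells) and the 4-day neighbour library 1 (27 cells) most.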
